A study of Mus musculus with 6 samples.

Results

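Beta-defensins were taken as every probe of the array whose platform gene symbol begins with Defb and a number. This gave 50 of the 45281 probes, which stand for 42 genes, 8 of them with 2 probes, and 1 of them a pseudogene (Defb44-ps). Whole testis of 6 male C57Bl/6 mice aged 4 months gave the RNA, and each mouse had its own Illumina MouseWG-6 v2.0 array. Of these mice, 3 had been kept on standard chow (SD, mice 1, 2 and 5) and 3 on a high-fat diet that the study calls a Western-like diet (WD, mice 3, 4 and 6) with butter and sucrose as its rich components. Strong responders to diet did not enter the random draw of mice for the arrays, which limits what WD stands for here. No genetic alteration is given for either group.

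Beta-defensins are small, positively charged secreted peptides held together by disulfide bonds between conserved cysteines. Members made by skin, airway and gut epithelium kill microbes and attract leukocytes, whereas many rodent members are made in the male reproductive tract, where several coat the sperm surface during passage through the epididymis. The genes lie side by side in clusters that grew by duplication. The questions asked of the arrays were which members are detected in testis, at what level in each mouse, and whether the levels differ between SD and WD.

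Most beta-defensins were not detected in testis, and 9 genes were detected in every mouse. A probe was counted as detected on an array when its detection p, which sets it against the negative control probes, was under 0.05. At least 3 of the 6 arrays detected 12 of the 50 probes (24%), against 43.6% of all probes and 47.8% of probes with 1 gene symbol. All 6 arrays detected 10 probes (20%, against 36.2% of all probes), which belong to Defb11, Defb14, Defb15, Defb19, Defb21, Defb30, Defb33, Defb36 and Defb45. Both probes of Defb36 were among them. The probes of Defb20 and Defb48 were detected on 4 arrays each. Another 8 probes (16%, against 12.4% of all probes) were detected on 1 or 2 arrays, and 30 probes (60%, against 44% of all probes) on none.

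**Figure D1:**
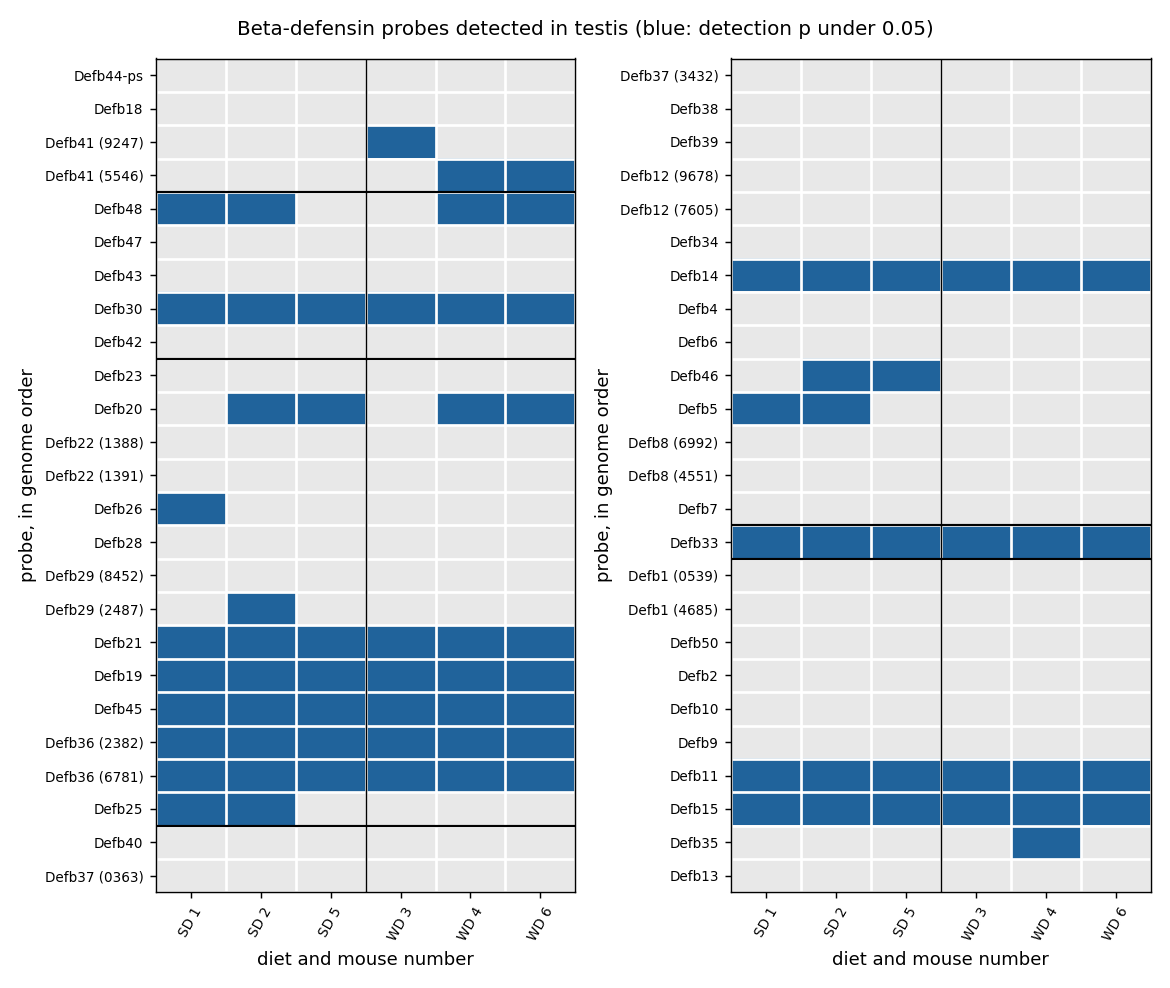
Detection of the 50 beta-defensin probes in each of the 6 mice (columns, SD mice left and WD mice right of the vertical line), with blue for a detection p under 0.05. Rows follow the order of the genes in the genome, black horizontal lines separate groups of neighbours, and genes with 2 probes carry the last 4 digits of the probe number. Defb21, Defb19, Defb45 and Defb36, which follow each other, are blue in all 6 mice.

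The detected members were spread over several gene clusters. All 42 genes could be placed in RefSeq gene order on GRCm38.p6, where they form 6 groups of neighbours. Members of a group lie on the same chromosome with gaps under a fixed limit, so the number of groups depends on that limit. The group from Defb23 to Defb25 holds 11 genes, of which 4 were detected on all 6 arrays. These 4, Defb21, Defb19, Defb45 and Defb36, are consecutive beta-defensins with no other protein-coding gene between them. In the group from Defb40 to Defb7, 1 of 13 genes was detected on all 6 arrays, namely Defb14, and 10 were detected on none. In the group from Defb1 to Defb13, 2 of 9 genes were detected on all 6 arrays, the neighbours Defb11 and Defb15, and 6 on none. Defb33 stands by itself among the members and was detected on all 6 arrays. The group from Defb48 to Defb42 holds 5 genes, with Defb30 on all 6 arrays and Defb48 on 4. In the group from Defb44-ps to Defb41, with 3 genes, no single probe was detected on 3 arrays, while the 2 probes of Defb41 together were detected in 3 mice.

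The promoters of the detected neighbours of Defb19 are shown first, because these genes were detected together. They run from 250 bases before to 50 bases after the annotated start and come from RefSeq on GRCm38.p6, where 28 of the 42 genes had an entry. Defb19, Defb14 and others had no entry. Capitals mark motifs searched on both strands. These were the TATA box as TATAA and, overlapping it, as TATAAA, then the core of SOX factor sites, AACAAT, then an element of steroid receptor sites, AGAACA, which appears as TGTTCT when it lies on the opposite strand, and a form of the NF-kB motif. Defb21 has a pair of starts, at chr2:152572493-152572792 and chr2:152573498-152573797, both on the plus strand, Defb45 lies at chr2:152596436-152596735 on the minus strand and Defb36 at chr2:152604077-152604376 on the plus strand.
Defb21 first start: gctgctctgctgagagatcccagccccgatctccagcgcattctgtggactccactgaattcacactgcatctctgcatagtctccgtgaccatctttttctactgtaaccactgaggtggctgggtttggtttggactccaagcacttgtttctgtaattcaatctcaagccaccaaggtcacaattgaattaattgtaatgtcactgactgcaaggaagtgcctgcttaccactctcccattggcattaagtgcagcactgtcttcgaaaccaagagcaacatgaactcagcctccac
Defb21 second start: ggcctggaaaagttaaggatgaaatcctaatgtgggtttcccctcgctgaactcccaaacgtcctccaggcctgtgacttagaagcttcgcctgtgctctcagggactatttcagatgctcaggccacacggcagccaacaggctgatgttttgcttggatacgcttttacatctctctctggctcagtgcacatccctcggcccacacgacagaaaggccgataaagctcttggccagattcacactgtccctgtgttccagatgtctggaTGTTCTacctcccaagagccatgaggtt
Defb45: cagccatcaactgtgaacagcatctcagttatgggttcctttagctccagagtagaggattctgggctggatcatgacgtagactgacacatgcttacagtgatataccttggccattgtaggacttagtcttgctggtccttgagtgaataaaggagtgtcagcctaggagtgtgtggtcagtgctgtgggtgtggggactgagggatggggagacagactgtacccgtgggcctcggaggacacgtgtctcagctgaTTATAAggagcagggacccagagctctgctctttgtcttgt
Defb36: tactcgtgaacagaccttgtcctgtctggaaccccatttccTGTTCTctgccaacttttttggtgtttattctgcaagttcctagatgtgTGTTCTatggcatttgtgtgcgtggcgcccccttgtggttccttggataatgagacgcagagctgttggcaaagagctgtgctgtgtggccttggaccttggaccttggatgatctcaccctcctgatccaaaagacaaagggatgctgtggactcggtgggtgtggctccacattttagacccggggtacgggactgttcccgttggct

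In these letters Defb36 carries AGAACA at 2 places and Defb21 carries it once, after its second start. Defb45 carries TATAA just after its annotated start, not before it, where it overlaps its own copy on the opposite strand. Over the 28 genes with an entry, AGAACA was found in 17 (60.7%), against 19% of 32851 promoters of the same length. A gene counted here if any of its entries matched, whereas the shares over all promoters are per entry. Among the members this concerns Defb21 alone, which has a pair of starts. AGAACA was found in 7 of the 9 genes detected on at least 3 arrays and in 7 of the 14 detected on none. TATAA was found in 10 genes (35.7%, against 24.9% of promoters), TATAAA in 5 (17.9%, against 13.6%), AACAAT in 1 (3.57%, against 10.7%) and the NF-kB motif in 0 (against 0.411%). Related members share promoter sequence, so these genes are not independent of each other, and a match is a run of letters, not a site of binding.

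Of the 10 pairs of members whose promoters were identical at over 80% of the aligned bases, 1 pair, Defb10 and Defb11, differed in reaching 3 arrays, and in the other 9 neither gene reached them. The promoters of Defb11 and Defb10 were identical at 86.7% of 271 aligned bases, and those of Defb11 and Defb9 at 80% of 275. Defb11 was detected on all 6 arrays, and Defb9 and Defb10 on none. These promoters are shown to let the letters be compared. Defb9 lies at chr8:21885385-21885684 and Defb11 at chr8:21906383-21906682, both on the minus strand, and Defb10 at chr8:21858651-21858950 on the plus strand.
Defb9: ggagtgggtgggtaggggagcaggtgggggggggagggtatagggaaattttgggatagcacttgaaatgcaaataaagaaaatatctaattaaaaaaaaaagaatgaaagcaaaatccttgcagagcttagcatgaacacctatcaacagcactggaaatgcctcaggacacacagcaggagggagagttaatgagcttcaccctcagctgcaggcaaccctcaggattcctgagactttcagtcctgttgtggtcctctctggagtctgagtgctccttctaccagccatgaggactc
Defb10: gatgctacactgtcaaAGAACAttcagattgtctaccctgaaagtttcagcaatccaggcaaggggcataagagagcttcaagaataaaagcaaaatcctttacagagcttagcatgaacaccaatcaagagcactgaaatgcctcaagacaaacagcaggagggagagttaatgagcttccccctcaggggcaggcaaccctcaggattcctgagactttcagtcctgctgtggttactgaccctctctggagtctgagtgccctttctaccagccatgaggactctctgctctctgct
Defb11: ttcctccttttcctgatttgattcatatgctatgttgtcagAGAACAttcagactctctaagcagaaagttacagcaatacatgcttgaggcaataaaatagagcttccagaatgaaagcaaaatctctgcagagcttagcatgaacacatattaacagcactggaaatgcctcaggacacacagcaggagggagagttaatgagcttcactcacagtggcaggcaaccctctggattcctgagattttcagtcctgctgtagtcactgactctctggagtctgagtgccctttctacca

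In the group from Defb40 to Defb7, the promoters of Defb5, Defb6, Defb7, Defb8 and Defb46 were likewise alike, with identities up to 86.9% (Defb7 and Defb8). None of these genes was detected on more than 2 arrays. The probe sequences were not used here, so how far a probe also binds the RNA of a related member was not tested.

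Defb19, a beta-defensin also named Tdl, had the largest diet difference among the tested members, and it did not pass the threshold. Its probe gave raw intensities from 15501 to 25160 over the 6 mice, where the array medians were between 120.1 and 172.5. After background correction and quantile normalization, on the log2 scale used from here on, its levels were 14.01, 13.77 and 14.12 in SD mice 1, 2 and 5. They were 14.63, 14.20 and 14.27 in WD mice 3, 4 and 6. Every WD mouse was therefore above every SD mouse, with WD mouse 3 highest. The means were 14.36 ± 0.232 in WD and 13.97 ± 0.182 in SD (standard deviation, n = 3 each), a log2 difference of 0.40 (95% interval 0.01 to 0.78, unadjusted), or 1.32-fold. The limma fit gave an adjusted p of 0.935 over the 19763 tested probes. The exact two-sided permutation p was 0.1, the smallest that 3 against 3 mice allow.

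Defb45 and Defb36, the next genes in the row, had positive differences of smaller size relative to their error. Defb45 was at 9.87, 10.02 and 9.96 in SD mice 1, 2 and 5 and at 10.36, 10.16 and 10.11 in WD mice 3, 4 and 6. Again the diets did not overlap, with a log2 difference of 0.26 (95% interval -0.04 to 0.56, adjusted p = 0.935 by limma). Defb36 was measured by 2 probes, and on each the diets overlapped. The gene models Gm14163 and Gm31618 overlap Defb36, and whether a probe also reads them was not tested. On probe ILMN_2926781 the levels were 11.46, 11.38 and 11.56 in SD mice 1, 2 and 5 and, in WD mice 3, 4 and 6, 12.03, 11.41 and 11.33. On probe ILMN_2702382 they were 9.21, 8.94 and 9.24 in SD and 9.83, 9.22 and 8.83 in WD. On both probes WD mouse 3 was highest and WD mouse 6 lowest, so the WD mice spanned the whole range. The log2 differences were 0.13 (95% interval -0.33 to 0.58) and 0.17 (-0.40 to 0.73). Without WD mouse 3 they were -0.09 and -0.10.

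The other members of this group with a tested probe were Defb21 and Defb20. Defb21 was at 6.76, 6.59 and 6.53 in SD mice 1, 2 and 5 and at 6.82, 6.48 and 6.74 in WD mice 3, 4 and 6. WD mouse 3 was highest here too, and the diets overlapped, with a log2 difference of 0.05 (95% interval -0.28 to 0.39), which was -0.01 without WD mouse 3. Defb20 was detected in SD mice 2 and 5 and in WD mice 4 and 6. Its levels were 5.25, 5.66 and 5.26 in SD and 5.10, 5.63 and 5.53 in WD, a log2 difference of 0.03 (95% interval -0.41 to 0.46).

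**Figure D2:**
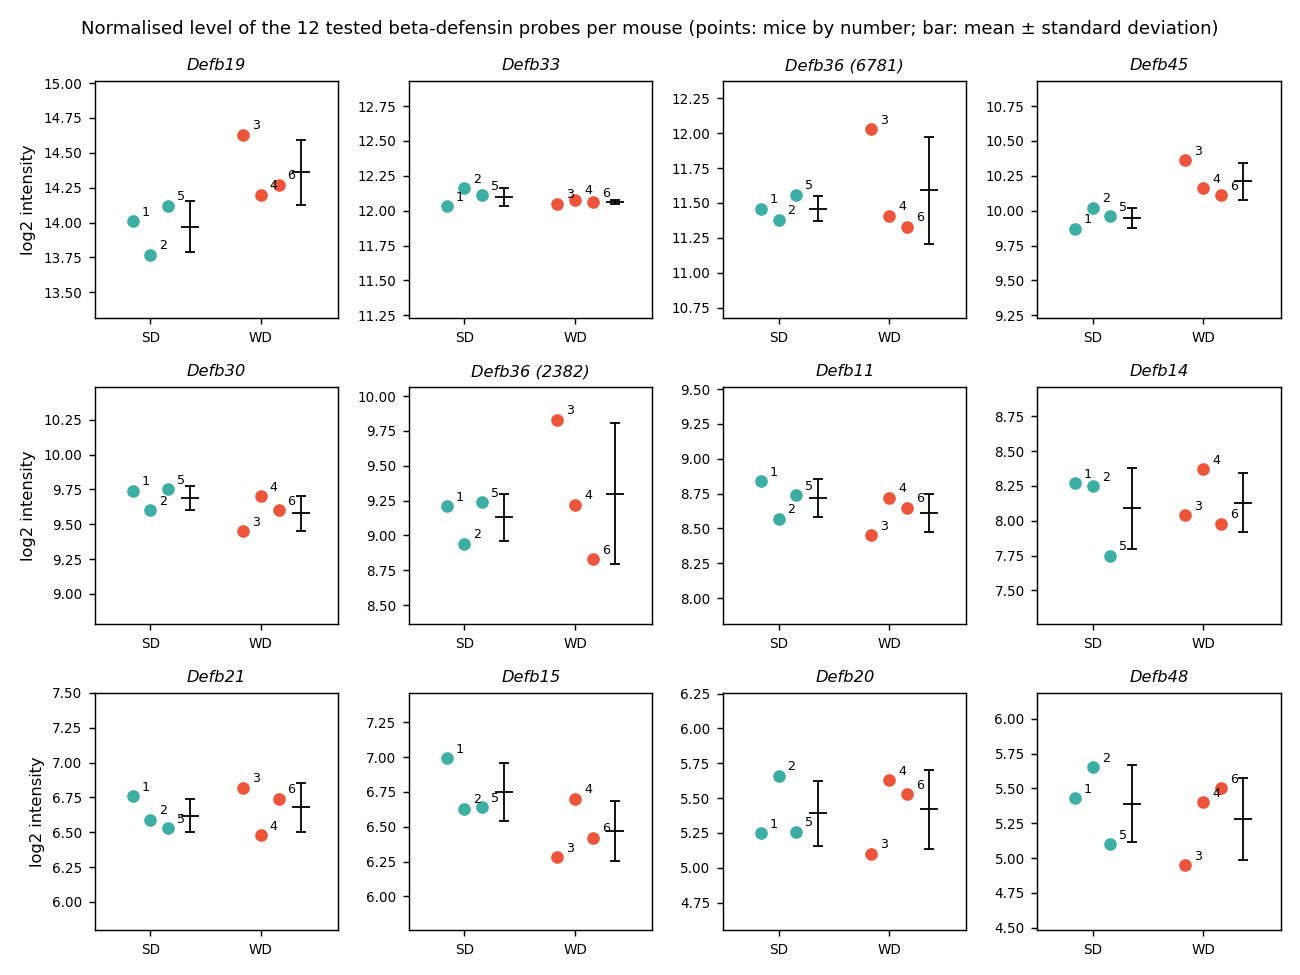
Normalised log2 intensity of each tested beta-defensin probe, 1 panel per probe, with a point for each mouse labelled by its number (SD, standard diet, left and WD right) and the mean ± standard deviation of 3 mice beside the points. Each panel spans the same number of log2 units around its own centre, and the diets separate for Defb19 and Defb45 alone.

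Members outside this group had negative differences or differences near 0. Defb33 was the steadiest, at 12.03, 12.16 and 12.11 in SD mice 1, 2 and 5 and at 12.05, 12.08 and 12.06 in WD mice 3, 4 and 6. Its 6 mice spanned 0.13 on the log2 scale, and the difference was -0.04 (95% interval -0.31 to 0.24), which sets the bounds at 0.806-fold and 1.18-fold. Defb30 was at 9.74, 9.60 and 9.75 in SD and 9.45, 9.70 and 9.60 in WD, a difference of -0.11 (95% interval -0.42 to 0.19). The SD and WD mice overlapped for both genes.

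The neighbours Defb11 and Defb15 had their lowest level in WD mouse 3. Defb11 was at 8.84, 8.57 and 8.74 in SD mice 1, 2 and 5 and at 8.45, 8.72 and 8.65 in WD mice 3, 4 and 6, a log2 difference of -0.11 (95% interval -0.43 to 0.22). Defb15, which in rat is an epididymal member, was at 6.99, 6.63 and 6.64 in SD and 6.28, 6.70 and 6.42 in WD. Its difference was -0.28 (95% interval -0.66 to 0.11, adjusted p = 0.935 by limma), the largest in the negative direction, and WD mouse 4 lay among the SD mice.

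Defb14, the counterpart of human beta-defensin 3, which kills bacteria and binds the receptors Ccr6 and Mc1r, was at 8.27, 8.25 and 7.75 in SD mice 1, 2 and 5. It was at 8.04, 8.37 and 7.98 in WD mice 3, 4 and 6. The gene model Gm39139 overlaps this gene. The diets overlapped and the lowest value was that of SD mouse 5, with a log2 difference of 0.04 (95% interval -0.39 to 0.47). Defb48 was detected in SD mice 1 and 2 and WD mice 4 and 6, at 5.43, 5.65 and 5.10 in SD and 4.95, 5.40 and 5.50 in WD. Its difference was -0.11 (95% interval -0.57 to 0.35).

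Between the diets, 0 of the 12 tested beta-defensin probes passed the threshold of an adjusted p under 0.05 in the limma comparison, and likewise 0% of all tested probes. At an unadjusted p under 0.05 there was 1 probe, that of Defb19, where 5.13% of all tested probes had such a p (2.56% higher and 2.57% lower in WD). Without SD mouse 1, SD mouse 2, WD mouse 3 or WD mouse 6 this number was 0, and the log2 difference of Defb19 ranged from 0.27 to 0.48 over the mice left out. The diets did not overlap at 2 probes, those of Defb19 and Defb45, with WD above at both, against 10.2% of all tested probes in either direction and 5.17% with WD above. The mean was higher in WD at 7 of the 12 probes and lower at 5, where 49.8% of all tested probes were higher. The median log2 difference was 0.03 and the median size 0.11, against -0.001 and 0.13 over all tested probes.

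**Figure D3:**
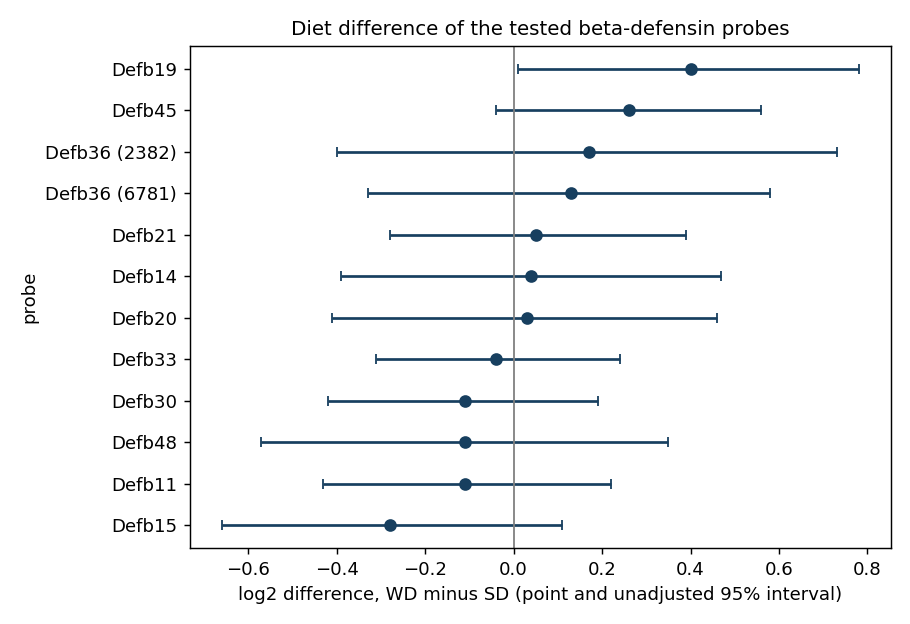
Log2 difference WD minus SD for the tested beta-defensin probes (points) with the unadjusted 95% interval of the limma fit (horizontal bars), ordered by size. The interval of Defb19, from 0.01 to 0.78, is the only one that leaves out 0, and its adjusted p was 0.935.

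The members differed in how single mice stood apart, above all WD mouse 3. This mouse had the highest level at 5 of the 12 tested probes, which were those of the consecutive genes Defb21, Defb19, Defb45 and Defb36, and the lowest at another 5, those of Defb11, Defb15, Defb20, Defb30 and Defb48. Over all tested probes it was highest at 20.2% and lowest at 21.1%. Relative to the mean of the 6 mice, WD mouse 3 stood at 0.46 for Defb19, 0.28 for Defb45, 0.50 and 0.62 for the probes of Defb36, and -0.33 for Defb15. In the same mouse the median of 11 tested Sertoli cell markers stood at 0.44, against -0.11 to -0.04 in the other mice. The median of Leydig cell markers there was 0.43, against -0.15 to 0.03 in the other mice. For macrophage markers it was 0.76, against -0.23 to 0.03, and for germ cell markers 0.01. All 11 tested Sertoli markers and all 11 tested macrophage markers had a higher mean in WD, against 5 of 7 Leydig and 2 of 9 germ cell markers, with 0 past the adjusted threshold. Unadjusted limma p-values under 0.05 belonged to 3 macrophage markers (H2-Eb1, Mrc1 and Fcer1g), Inha of the Sertoli list and Hsd3b1 of the Leydig list. Over all tested probes the share was 5.13%. The summed linear level was 21820 to 22960 in SD and 22710 to 29040 in WD for Sertoli markers, 3073 to 3138 and 3437 to 5963 for macrophage markers, and 41400 to 47800 and 44320 to 59570 for Leydig markers. The sum of the germ cell markers is not compared, since it is carried by the brightest probes, such as that of Prm1, which took only the values 15.77 and 15.81 in the 6 mice. The Leydig sum likewise comes largely from Insl3 (SD mean 15.15), and the Sertoli sum from Cldn11 and Cst9 (SD means 13.22 and 13.05). These 2 sums therefore do not stand for their whole lists. Of the macrophage markers Tyrobp was detected on no array. What part the cell make-up of this sample had in the defensin values was not tested, and in whole tissue a larger share of a cell type cannot be told apart from more RNA per cell.

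**Figure D4:**
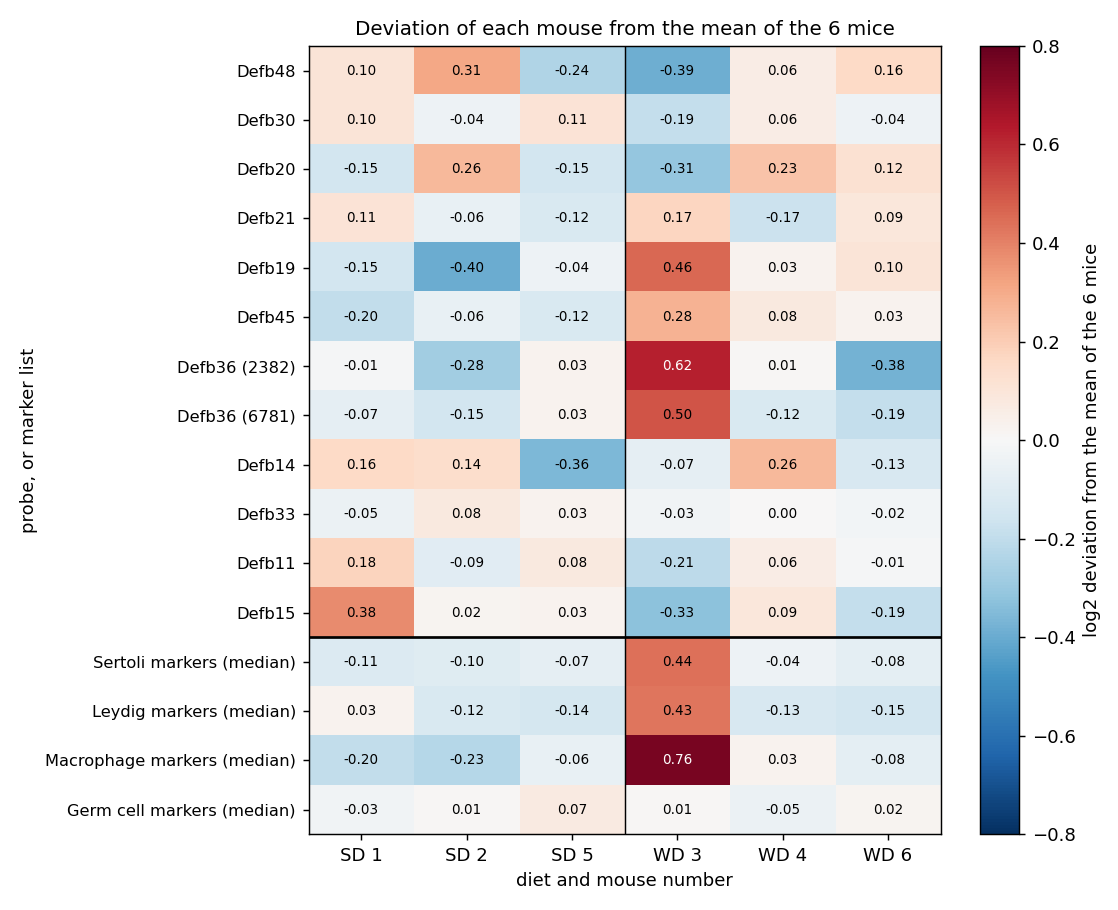
Deviation of each mouse from the mean of the 6 mice, on the log2 scale. Above the line are the tested beta-defensin probes, ordered along each chromosome. Below it is the median of the Sertoli, Leydig, macrophage and germ cell markers. WD mouse 3 is red for Defb21, Defb19, Defb45, both Defb36 probes and the markers of Sertoli cells, Leydig cells and macrophages, and blue for Defb48, Defb30, Defb20, Defb11 and Defb15.

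Median intensity was lowest for mice 5 (126.2) and 6 (120.1), so differences were also taken within the sets of mice 1 to 4 and mice 5 and 6. For Defb19 the log2 difference was 0.52 among mice 1 to 4 and 0.14 between WD mouse 6 and SD mouse 5. For Defb45 it was 0.31 and 0.15, and for Defb15 -0.31 and -0.21. The sign changed between the sets for Defb14, Defb20, Defb21, Defb48 and both probes of Defb36, the last with 0.30 and 0.46 among mice 1 to 4 and -0.22 and -0.41 between mice 6 and 5.

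A further 7 genes had no probe detected on more than 2 arrays. The lowest detected level was between 5.20 and 5.43 on each array, and most of their detected values lay near it, apart from Defb5 and Defb29 in SD mouse 2. Defb5 was detected in SD mice 1 and 2, at 5.45 and 6.29, and had 5.14 in SD mouse 5 and 5.21, 5.32 and 4.90 in WD mice 3, 4 and 6. Defb25 was detected in SD mice 1 and 2, Defb46 in SD mice 2 and 5, Defb26 in SD mouse 1 and Defb35 in WD mouse 4. Defb29 had 1 probe detected in SD mouse 2, at 6.05, while its other probe was detected in 0 mice. Defb41, which in mouse is made in the first part of the epididymis, had 1 probe detected in WD mice 4 and 6 and the other in WD mouse 3, at levels of at most 5.48, and neither in SD mice, where the first probe reached 5.21. These genes were below the filter of the diet comparison. Without that filter their log2 differences ranged from -0.48 (Defb5) to 0.31 (Defb35), and none of them had an unadjusted p under 0.05.

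The 24 genes detected in no mouse include the best-known epithelial members. They were Defb1, which in kidney and airway is made constitutively, Defb2, Defb4, an inducible member of airway and skin, Defb6, Defb7, Defb8, Defb9, Defb10, Defb12, Defb13, Defb18, Defb22, which in epididymis coats the sperm surface, Defb23, Defb28, Defb34, Defb37, Defb38, Defb39, Defb40, Defb42, Defb43, Defb44-ps, Defb47 and Defb50. Of these, 5 had 2 probes (Defb1, Defb8, Defb12, Defb22 and Defb37), both undetected. Together with the second probe of Defb29, their levels lay between 4.38 and 5.26 and their raw intensities between 99.1 and 179.4. They were not well above background, which at this sensitivity does not show that no RNA was present.

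Markers of the epididymis, the organ in which many of the undetected members are known to be made, were detected in part. Of 20 epididymis genes on the array, 11 were detected in no mouse, where 44% of all probes were, among them the lipocalins Lcn5, Lcn9 and Lcn10, Adam7, Crisp4 and the defensin-like genes Spag11a and Spag11b. Those detected in all 6 mice were 3, namely Eppin, which Sertoli cells make as well, Cst12 and Cuzd1. Cst11 was detected on 5 arrays, with means of 5.73 in SD and 5.99 in WD. The summed level of the list, on the linear scale, was 3738 to 4592 in SD and 3961 to 6337 in WD. Most of this sum comes from Cst12 and Eppin (SD means 10.98 and 10.59), and the undetected probes are in it as well. It is therefore not a measure of epididymis RNA in these samples. Sertoli and germ cell markers were detected on all 6 arrays at 11 of 13 and 9 of 11 genes, while Amh and Kitl of the first list and Zbtb16 and Sycp3 of the second were detected on none.

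Receptors and other antimicrobial genes were measured beside the defensins. Of 20 listed genes for receptors and signalling 19 were on the array and 7 were tested, of which 2 were higher and 5 lower in WD, with a median log2 difference of -0.05. Ccr6, the chemokine receptor that several beta-defensins bind, was detected in every mouse, at 8.36, 8.53 and 8.72 in SD mice 1, 2 and 5 and from 7.93 (mouse 3) to 8.43 (mouse 6) in WD. The diets overlapped, with a log2 difference of -0.42 (adjusted p = 0.935 by limma). Its ligand Ccl20 was detected on 1 array, and Mc1r, Tlr4 and Ccr2 on none. Ly96, a partner of Tlr4, had a difference of 0.48 (adjusted p = 0.935).

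Among 25 other antimicrobial genes on the array 7 were tested, of which 6 were higher and 1 lower in WD, with a median log2 difference of 0.43, and 0 had an unadjusted p under 0.05. They included Lcn2, which withholds iron from bacteria, at 12.24, 12.42 and 12.12 in SD mice 1, 2 and 5 and at 13.75, 12.49 and 12.39 in WD mice 3, 4 and 6. The smallest p were for the ribonuclease gene Rnase4 (0.49, adjusted p = 0.935) and the macrophage lysozyme gene Lyz2 (0.43, adjusted p = 0.935). The median of the tested genes stood at 0.76 in WD mouse 3 relative to the mean of the 6 mice and between -0.21 and 0.02 in the others. Of these tested genes, Lyz2 is also in the macrophage list and Eppin in the epididymis list, so the lists are not independent. Of the alpha-defensins, Defa20 was detected in no mouse and Defa3 and Defa21 on 1 array each. No gene of either list passed the adjusted threshold.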

How the data were processed

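Testis RNA of 6 mice was measured on 1 Illumina BeadChip array per mouse. The authors deposited linear bead intensity values of 45281 probes, exported from GenomeStudio (version not given in the sources used here), with no background subtraction or scaling. Per the file headers a detection p-value stands beside each, but it rises with intensity, so the deposited column was taken as a score, 1 minus the p of detection. For the same arrays the authors' deposited log2 values equal log2 intensity minus each array's upper quartile and minus a value per probe of unknown origin (s.d. over arrays at most 0.000152 for any probe). Array medians were -0.01725, -0.05636 and 0.001854 in the SD mice, and -0.01196, 0 and 0.007596 on the arrays of the WD mice, in order of mouse number. They served as an alternative.

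Intensities were background corrected with normexp from the detection p and quantile normalized, as neqc of limma 3.58.1 does (R 4.3.3, offset 16 before log2). Probes with a detection p under 0.05 on at least 3 of 6 arrays were tested (19763). The difference WD minus SD was fitted by lmFit and moderated by eBayes, with Benjamini-Hochberg adjustment over all tested probes. P-values set the difference between diets against the spread of mice within a diet, which eBayes moderates with all tested probes. The procedure was tested on simulated data, in which every added change was larger than the largest member difference found here. Recovery of differences as small as those of the members was therefore not tested. The number of arrays limits precision, and probes differ in response, so levels are not compared between probes.

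Gene symbols came from the platform annotation, with 1 symbol for 34885 probes. Every member is named, and members detected on at least 3 arrays are given in every mouse. The lists were of markers (epididymis, Sertoli, Leydig, germ cell, macrophage, neutrophil, epithelium, adipocyte), receptors and other antimicrobial genes. For these lists counts are given, and some genes are named, such as those with the smallest p or defining markers. Each gene is given by the probe of highest mean. Members, lists and tests were chosen with earlier results of these data known.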

Additional observations from a re-analysis of the deposited data

How the results depend on the processing

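No paired analysis was possible because no mouse number in the titles occurs in both diets. Across 17 alternatives (background, scaling, deposited log2 values, offset, filters on dim probes, variance trend, array weights, each mouse left out, mice 5 and 6 left out or as a block) 0 beta-defensin probes and 0 of all probes passed the adjusted threshold in limma. The number detected was 10 at a detection p under 0.01 and 10 on all 6 arrays, and 20 when 1 array sufficed. The number with an unadjusted p under 0.05, 1 as reported, was 0 with median scaling and with mice 5 and 6 as a block, and 2 (Defb19 and Defb45) with no background correction and with the variance trend. It was 3 with no filter, where Defb18 and Defb43, detected in no mouse, joined Defb19. It was 0 to 1 with single mice left out. The median difference of the tested members lay between -0.06 and 0.05 over the alternatives and stayed within the spread between mice.

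Of 199 differences of members under alternatives, 13 changed sign, and 6 of the 12 probes (Defb11, Defb15, Defb19, Defb30, Defb33 and Defb45) kept theirs in every alternative that tested them. Defb19 lay between 0.27 and 0.52, Defb45 between 0.18 and 0.31 and Defb15 between -0.40 and -0.11. With single mice left out, Defb14 ranged from -0.13 to 0.13, Defb20 from -0.08 to 0.19, Defb21 from -0.01 to 0.15, Defb48 from -0.26 to 0.05, and Defb36 from -0.09 to 0.26 on probe ILMN_2926781 and from -0.10 to 0.40 on probe ILMN_2702382. Without mice 5 and 6, Defb14 was at -0.05 and Defb21 at -0.02. The cause was not tested. Normalization was kept when mice were left out, and the filter was applied again. Dim probes such as Defb20 and Defb48 are limited by background.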

Other observations

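Neutrophil, epithelium and adipocyte markers were measured as well. Of 8 neutrophil genes 6 were detected in no mouse, and the 1 tested gene, the peroxidase gene Mpo, was at 7.88, 7.93 and 7.80 in SD mice 1, 2 and 5 and at 7.51, 7.58 and 7.25 in WD mice 3, 4 and 6, so the diets did not overlap (log2 difference -0.42, limma adjusted p = 0.888). Of 7 epithelium genes 4 were tested, 1 higher and 3 lower in WD, with a median log2 difference of -0.09. Epcam, Krt8 and Cldn3 were detected on all 6 arrays, with SD means of 7.69, 7.97 and 6.62 and WD means of 7.35, 7.95 and 6.77. Of 5 adipocyte genes 3 were detected in no mouse, and the 1 tested gene, Adipoq, was detected on all 6 arrays, with means of 9.89 in SD and 9.74 in WD.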
